A study of Arabidopsis thaliana with 4 samples.

Results

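Transcripts of 3 small families of amino-acid enzymes were followed in wild-type (WT) Arabidopsis thaliana and in vip3 mutants. The families were the branched-chain aminotransferases (BCAT), the methionine sulfoxide reductases of type B (MSRB) and the asparaginases (ASPGA and ASPGB). Members were the probe sets whose single gene symbol in the array's platform annotation began with one of these family names followed by a number, which gave 7 of the 22746 probe sets tested: BCAT4, MSRB3, MSRB5, MSRB6, MSRB9, ASPGA1 and ASPGB1. The families were selected on the WT and vip3 signals themselves, because BCAT4, MSRB6 and ASPGB1 differed strongly between the genotypes. The values of all 7 members in this contrast are therefore given as a description, and where a member is said to be called in the fit across all probe sets, that too only describes it.

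VIP3 is a component of the plant counterpart of Paf1C, a complex that travels with RNA polymerase II during transcriptional elongation, and the mutants carried the vip3-1 allele per the study's methods. RNA came from the total aerial tissue of 14-d-old plants grown on soil, with no treatment named in the labels, and each genotype was read on 2 ATH1 arrays. Per the labels, a replicate pooled 3 samples of more than 100 plants each, so that the spread between arrays was that between pools. No second mutant allele was measured on these arrays.

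Branched-chain aminotransferases move the amino group of leucine, isoleucine and valine, in the last step of their synthesis or the first of their breakdown. BCAT4 is the member that acts on methionine instead, where it opens the chain-elongation route that leads to the aliphatic glucosinolates, sulfur-rich defence compounds of the Brassicaceae. Methionine sulfoxide reductases repair methionine residues that have been oxidised in proteins, the B type acting on the R form of the sulfoxide and the A type on the S form. Asparaginases release ammonium from asparagine, a main form in which plants transport and store nitrogen, and leave aspartate. ASPGB1 is the potassium-dependent enzyme of the pair and ASPGA1 the potassium-independent one.

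The arrays were alike in their overall signal, with medians between 172.1 and 175.7, and log2 signals correlated at r = 0.953 within WT, at 0.95 within vip3 and at 0.941 to 0.946 between genotypes (over probe sets, so that the points are no replicates). The ratio of 3′ to 5′ signal of the GAPDH control, which rises with RNA degradation, lay between 1.51 and 1.81. The same ratio of the actin control was far higher, at 16.1 and 11.3 on the WT arrays and 13.5 and 15.7 on the vip3 arrays. Neither ratio separated the genotypes, and the part of 3′ bias in the members' values was not tested. All 4 measured markers of green tissue were bright in both genotypes and none was called. The listed markers of flower and of seed had no probe set named for them under these symbols. Of 5 root markers 3 had a probe set named for them. Summed over these 3, the WT arrays gave 4868 and 5788 and the vip3 arrays 2741 and 3327, almost all of it from PYK10, a root-enriched beta-glucosidase gene, which was called lower in vip3. The root-hair expansin genes EXPA7 and EXPA18 were dim, with signals between 9.1 and 71.6, overlapped between the genotypes and had log2 fold changes of opposite sign, -0.49 ± 0.52 SE and 0.6 ± 0.98 SE.

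The 7 members differed in direction. BCAT4 and MSRB6 were lower and ASPGB1 was higher in vip3, and for each of these both vip3 arrays lay outside the range of the WT arrays by a wide margin. ASPGA1 was lower and MSRB5 and MSRB9 were higher by smaller factors, between 1.21 and 1.42, and MSRB3 was the only member whose genotypes overlapped.

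**Figure D1:**
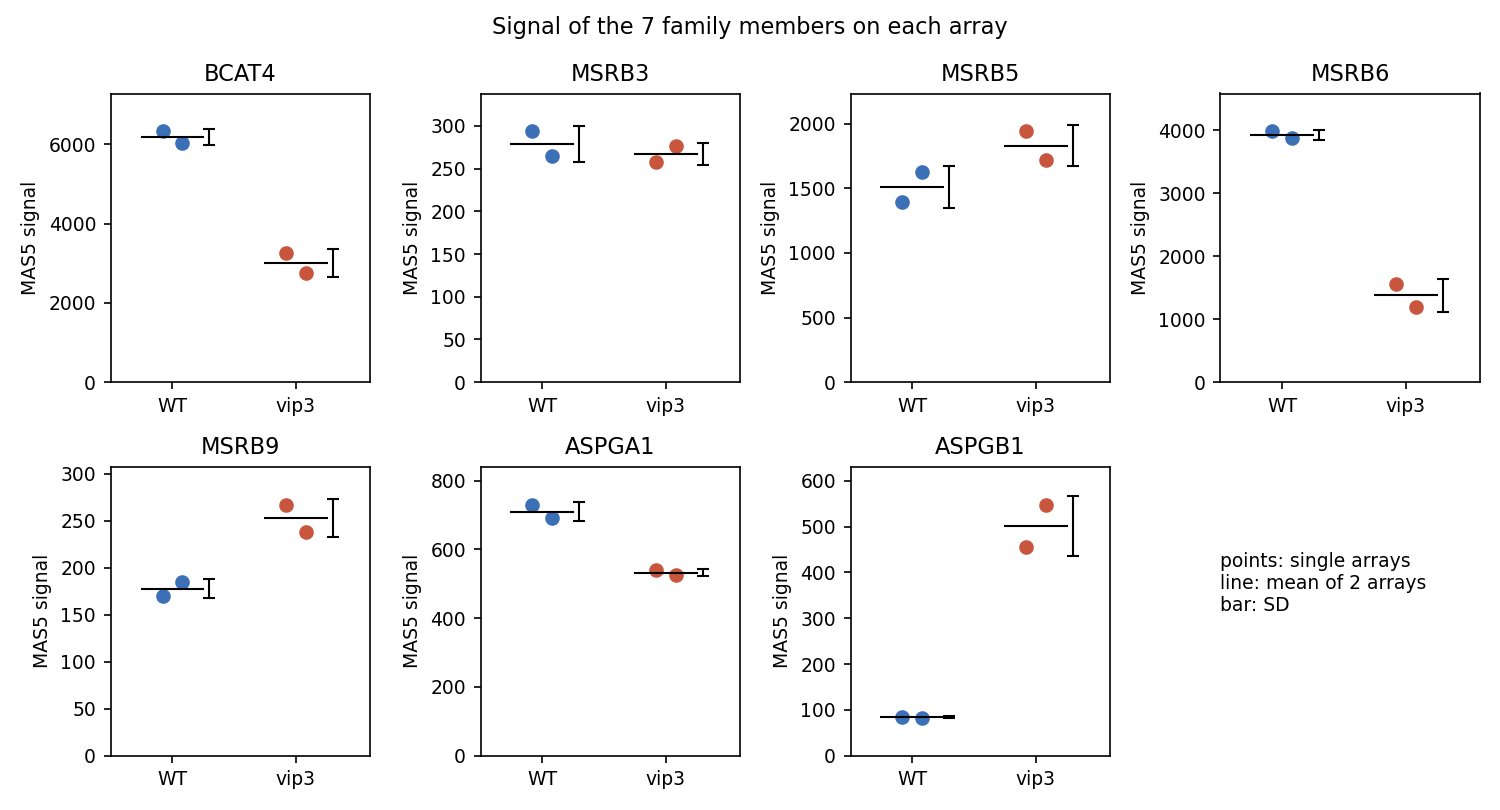
MAS5 signal (linear scale, starting at 0) of each member on the 2 WT and 2 vip3 arrays, with the mean as a line and the SD as a bar. BCAT4, MSRB6 and ASPGA1 lie lower in vip3 and ASPGB1 lies higher, whereas the MSRB3 arrays overlap.

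BCAT4, locus AT3G19710, had signals of 6331.5 and 6035.5 on the WT arrays and of 3260.4 and 2761.9 on the vip3 arrays. The dimmer WT array was still 1.85 times as bright as the brighter vip3 array, while arrays of the same genotype differed by at most 1.18 times. The mean was 6184 ± 209 (SD, n = 2) in WT and 3011 ± 352 in vip3, and the log2 fold change, vip3 minus WT, was -1.04 ± 0.09 (SE from the fit across all probe sets), or 2.06-fold lower. Since whole aerial tissue was used, fewer cells that express a gene and less transcript per cell cannot be told apart, here or for the other members.

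Among the other BCAT genes, only ATBCAT-5, which encodes a plastid aminotransferase of branched-chain amino acid synthesis, had a probe set named for it. It fell outside the rule because of the spelling of its symbol. ATBCAT-5 had signals of 720.6 and 797.2 in WT and of 791 and 689.9 in vip3, so that the genotypes overlapped. Its log2 fold change was -0.04 (95% confidence interval -0.27 to 0.2, limma adjusted p = 0.88), an interval that leaves out a change of the size seen for BCAT4. The 4 other BCAT loci of the RefSeq table, BCAT-1, BCAT-2, BCAT3 and BCAT7, were not analysed here for lack of a probe set named for them.

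Of the 9 MSRB loci, 4 had a probe set named for them. MSRB6 had signals of 3986.6 and 3870.8 in WT and of 1565.1 and 1198 in vip3. The WT arrays were within 1.03 times of each other and the vip3 arrays within 1.31 times, and the genotypes were separated by at least 2.47 times. From a mean of 3929 ± 81.9 in WT and 1382 ± 260 in vip3, the log2 fold change was -1.52 ± 0.12 SE, or 2.87-fold lower.

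None of the 3 measured relatives of MSRB6 was lower in vip3 by a comparable factor. MSRB5, which lies next to MSRB6 in gene order, had signals of 1391.7 and 1626.7 in WT and of 1940.9 and 1716.6 in vip3. Both vip3 arrays were above both WT arrays, but by only 1.06 times at the nearest, less than the 1.17 times between the WT arrays. Its log2 fold change was 0.28 ± 0.1 SE, opposite in sign to that of MSRB6.

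MSRB9 stands in a second cluster of the family, between MSRB8 and MSRB2 in gene order. It had signals of 170.3 and 184.8 in WT and of 266.9 and 238.1 in vip3, a log2 fold change of 0.51 ± 0.16 SE. The nearest arrays of the genotypes differed by 1.29 times, more than the 1.12 times between the vip3 arrays. MSRB9 was nevertheless not called at the threshold used for all probe sets.

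MSRB3, whose product resides in the endoplasmic reticulum, had signals of 293.8 and 264.3 in WT and of 258.2 and 276.1 in vip3. The genotypes overlapped and the log2 fold change was -0.06 ± 0.14 SE. MSRB1, MSRB2, MSRB4, MSRB7 and MSRB8 had no probe set named for them and were not analysed here.

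The asparaginase genes differed in opposite directions. ASPGB1 had signals of 84.9 and 81.9 in WT and of 455.8 and 547.7 in vip3, so that the lower vip3 array was 5.37 times as bright as the higher WT array. Its mean was 83.4 ± 2.12 in WT and 502 ± 65 in vip3, and its log2 fold change of 2.58 ± 0.17 SE, or 5.99-fold, was the largest among the members in either direction. The WT signals were below the array medians. With 16 added to each signal before the logarithm, which damps changes of dim probe sets, the log2 fold change was 2.38.

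ASPGA1 had signals of 729.9 and 689.7 in WT and of 539.3 and 524.4 in vip3. The arrays of a genotype differed by at most 1.06 times and the genotypes by at least 1.28 times, with a log2 fold change of -0.42 ± 0.09 SE, or 1.33-fold lower. The potassium-dependent asparaginase was thus brighter in vip3 than in WT, and the potassium-independent one, by a much smaller factor, dimmer than in WT. In vip3 the mean signals of ASPGB1 and ASPGA1 were 502 and 532. ASPGB1 was below ASPGA1 on vip3 replicate 1 (455.8 against 539.3) and above it on vip3 replicate 2 (547.7 against 524.4). Signals of different probe sets do not rank the transcript levels of these genes.

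At an adjusted p under 0.05 over all probe sets, 4 of the 7 members were called: BCAT4, MSRB6 and ASPGA1 lower and ASPGB1 higher. Of all probe sets 9.80% were called, 4.73% as higher and 5.07% as lower in vip3. Under the criteria that the study's methods name, 2-fold change and limma p under 0.001, BCAT4, MSRB6 and ASPGB1 were called, beside 1.56% of all probe sets. The methods do not say whether that p was adjusted, and the unadjusted p was used here. Without vip3 replicate 2 the log2 fold change of BCAT4 was -0.92, short of 2-fold. The genotypes did not overlap for 6 members and for 52.2% of all probe sets. The median log2 fold change was -0.06 over the members and 0 over all probe sets. These counts describe the members and support nothing, since the contrast had chosen the families. With a constant prior variance in place of one that follows the signal, 0 probe sets were called at an adjusted p under 0.05 in limma, members included. Still, 5 of the 7 members and 3798 of all probe sets had an unadjusted limma p under 0.05 there. The 2-fold and p criteria were met there by 1 member and 126 of all probe sets. Leaving out any 1 array ended the call of ASPGA1 too.

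**Figure D2:**
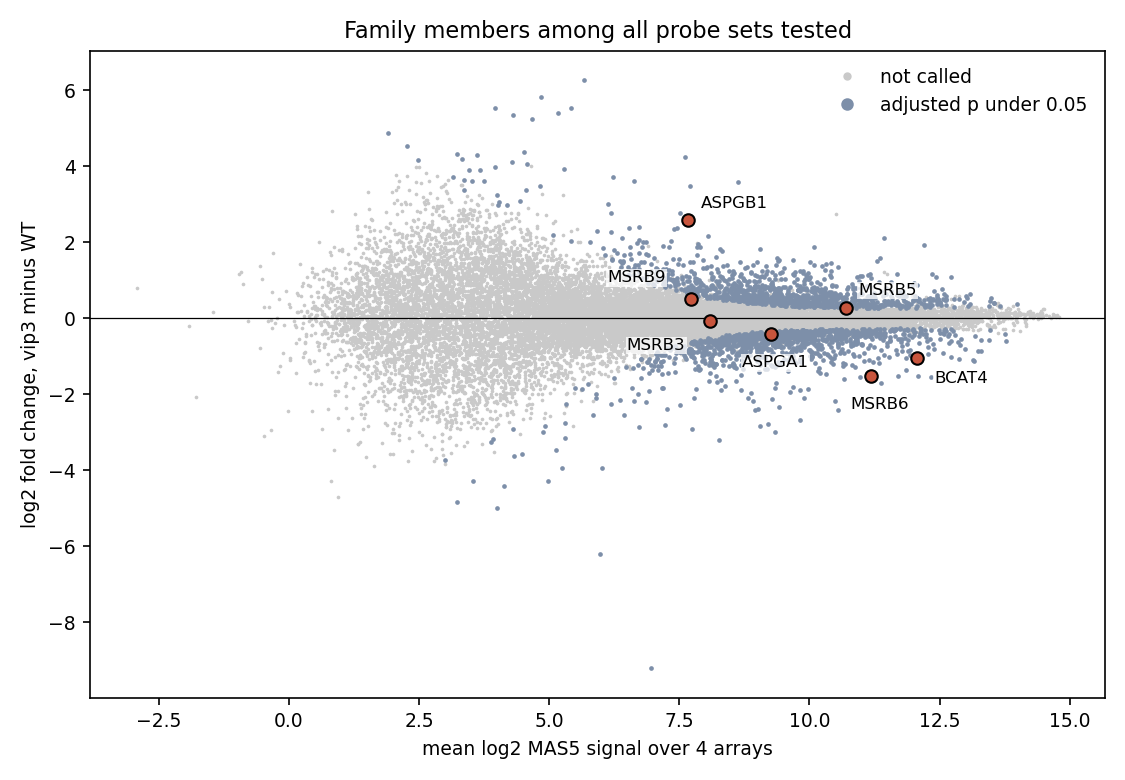
Log2 fold change, vip3 minus WT, of the 22746 probe sets against their mean log2 signal over the 4 arrays, with the 7 members as large points and probe sets called at an adjusted p under 0.05 in blue. BCAT4 (-1.04), MSRB6 (-1.52) and ASPGB1 (2.58) lie far from the line at 0, among called probe sets, and MSRB3 (-0.06) lies near it.

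Ranked by the size of the log2 fold change among called probe sets of the same direction, ASPGB1 stood at position 41 of 1076, MSRB6 at 80 of 1153, BCAT4 at 199 and ASPGA1 at 924. A gap between the genotypes as wide as that of ASPGB1, in the same direction, was found for 60 probe sets, ASPGB1 included. For MSRB6 this number was 246 and for BCAT4 it was 497.

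The neighbours of the 3 strongly altered genes in gene order were read from the same fit. MSRB3, MSRB4, the pseudogene AT4G04820, MSRB5 and MSRB6 follow each other in the RefSeq annotation. None of the 6 probe sets within 6 genes of MSRB6 was called, beside 9.80% of all probe sets, so that with so few the absence of calls tells little. AT4G04820 had signals of 5.6 and 18.2 in WT and of 41.1 and 3.9 in vip3. The other neighbouring genes had log2 fold changes between -0.06 and 0.44. MSRB4 and KEA3, the gene that follows MSRB6, were not analysed here.

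Around ASPGB1, 0 of 5 probe sets were called in limma, again beside 9.80% of all probe sets. AT3G16120, 3 genes before ASPGB1, had signals of 37.8 and 48.9 in WT and of 96.8 and 82.8 in vip3, a log2 fold change of 1.06 ± 0.38 SE that was not called (limma adjusted p = 0.14). Around BCAT4, 1 of 7 probe sets was called, for AT3G19740, the gene 2 positions beyond it. There 1 of its 2 probe sets fell by 0.49 on the log2 scale (limma adjusted p = 0.016), from signals of 633.9 and 668.1 to 466.2 and 462.7, while the other had a log2 fold change of -0.28 (adjusted p = 0.74).

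Around all 7 members, 3 of the 31 distinct neighbouring probe sets were called, a share close to that of all probe sets. Besides AT3G19740 these were AT4G04750, 6 genes before MSRB3, which fell by 0.66 (limma adjusted p = 0.039), and AT4G21870, 3 genes beyond MSRB9. AT4G21870 rose from signals of 490.7 and 475.9 to 1538.9 and 1283.7, or by 1.54 ± 0.1 SE on the log2 scale (limma, adjusted p = 0.00036). It was singled out after its values were seen.

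**Figure D3:**
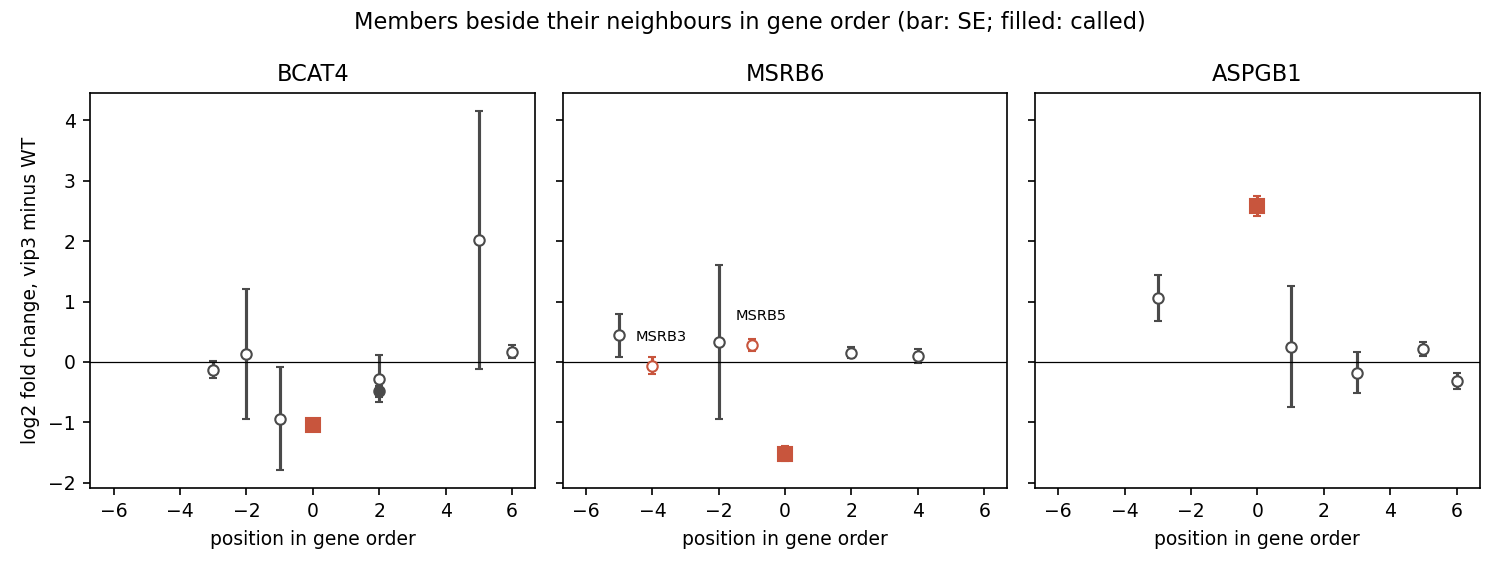
Log2 fold change (± SE), vip3 minus WT, of BCAT4, MSRB6 and ASPGB1 (squares at position 0) and of the named probe sets within 6 genes on each side in gene order; filled symbols were called. Around MSRB6 and ASPGB1 no neighbour was called, beside 9.80% of all probe sets. MSRB5, directly before MSRB6, lies at 0.28 against -1.52 for MSRB6.

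Genes of the surrounding pathways were taken from 5 lists with 110 loci, of which 24 had a probe set named for them alone. Only these count as measured below, and probe sets without a single gene name were not searched for the other loci. Of these 24, 2 were higher and 2 were lower in vip3 at an adjusted p under 0.05, and none met the criteria of the study's methods, beside 9.80% and 1.56% of all probe sets. All 4, AT2G31790, AT3G23940, MCCA and CBL, lost their call when any 1 array was left out, so that 0 of the 24 were called in limma in each of these settings, with 6 or 7 at an unadjusted p under 0.05. Their log2 fold changes ran from -0.38 to 0.57 with a median of -0.01, against 0 over all probe sets. Several of the listed loci carry no gene name in the annotation used, and these are given by locus without a role.

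For methionine chain elongation and aliphatic glucosinolates, the route that BCAT4 opens, 3 of 29 loci were measured. UGT74B1, which encodes the glucosyltransferase of the glucosinolate core, had signals of 2022.4 and 1788 in WT and of 2444.2 and 2059.9 in vip3 (log2 fold change 0.24 ± 0.1 SE, limma adjusted p = 0.21). AT2G31790 fell by 0.38 on the log2 scale, from 1743.8 and 1632.2 to 1354.8 and 1246.6 (limma adjusted p = 0.025). AOP3, for a dioxygenase that modifies glucosinolate side chains, had signals between 10.5 and 36.7 on all 4 arrays. The other enzymes of this route, among them those that follow BCAT4 directly, were not analysed here, so the change of BCAT4 could not be set beside theirs.

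For the synthesis and breakdown of branched-chain amino acids, 10 of 22 loci were measured, of which 1 was higher, 1 was lower and 8 were not called. MCCA and MCCB encode the subunits of methylcrotonyl-CoA carboxylase, an enzyme of leucine breakdown. MCCA rose from signals of 316 and 329.5 to 482.8 and 435 (log2 fold change 0.51 ± 0.11 SE, limma adjusted p = 0.032), whereas MCCB had a log2 fold change of -0.25 ± 0.1 SE and was not called (adjusted p = 0.18). AT3G23940 fell by 0.37 (limma adjusted p = 0.027). AT5G09300 had signals of 166.1 and 144.9 in WT and of 220.7 and 239.9 in vip3, without overlap, and its log2 fold change of 0.57 ± 0.17 SE was the largest of the 24 but was not called (limma adjusted p = 0.09). IVD, for isovaleryl-CoA dehydrogenase of leucine breakdown, and ALDH6B2, for the dehydrogenase of methylmalonate semialdehyde in valine breakdown, had log2 fold changes of -0.11 and 0.03.

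**Figure D4:**
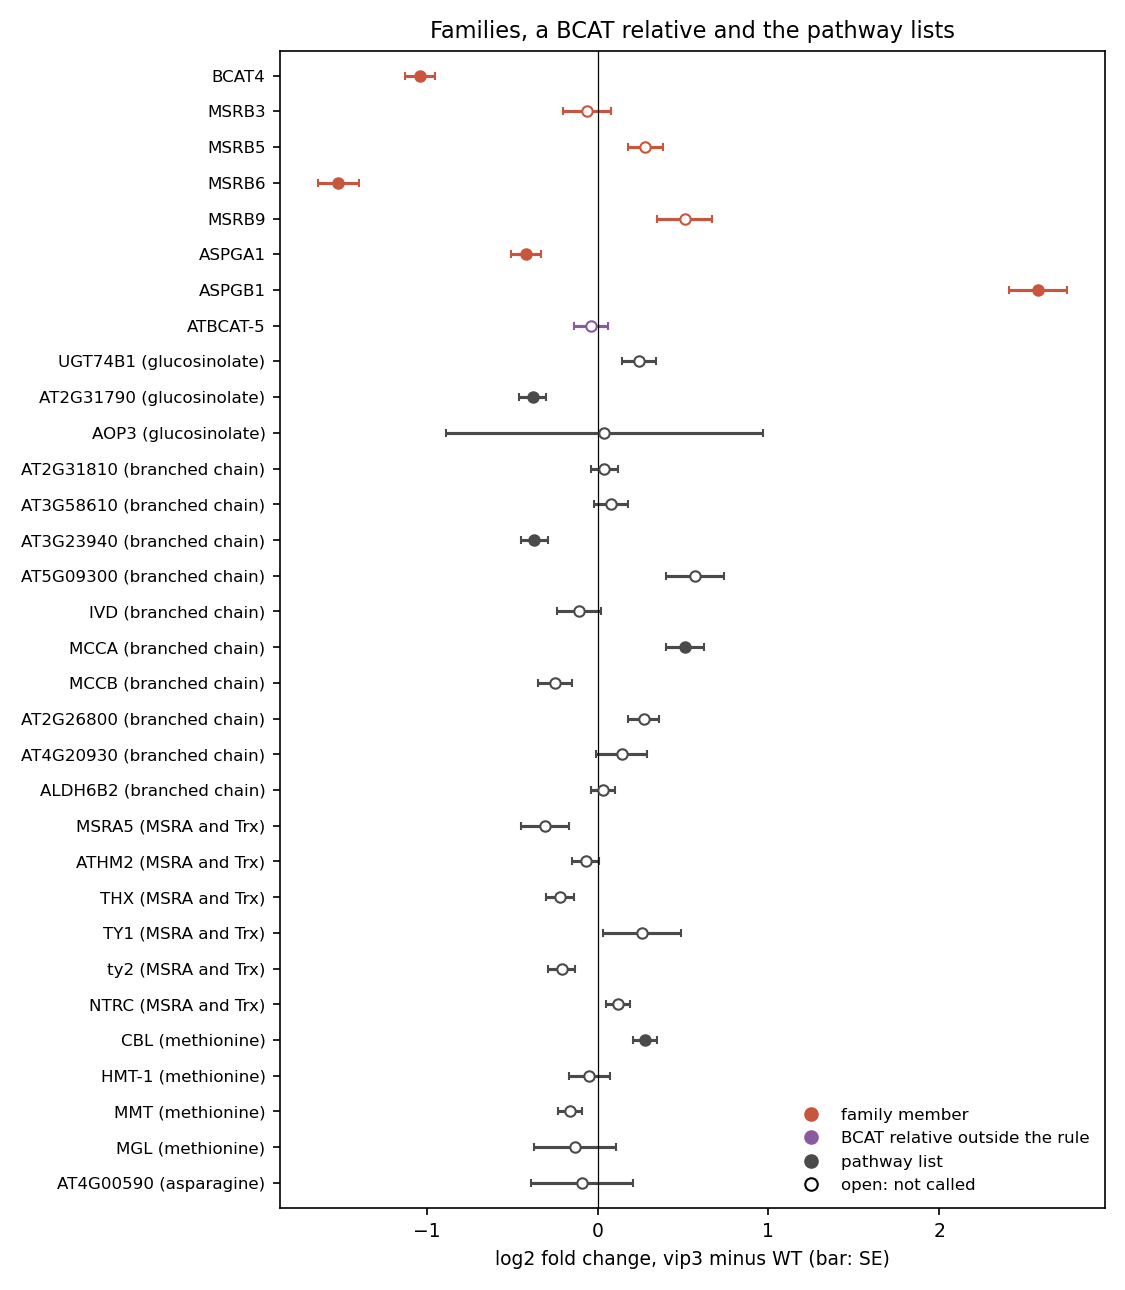
Log2 fold change (± SE), vip3 minus WT, of the 7 members, of ATBCAT-5 and of the 24 measured genes of the pathway lists, with open symbols for those not called. The points of the pathway genes lie between -0.38 and 0.57. BCAT4, MSRB6 and ASPGB1, for whose change the families were selected, lie outside that range, and so does ASPGA1 (-0.42).

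Among the sulfoxide reductases of type A and the thioredoxins that can reduce these enzymes, 6 of 18 loci were measured. None was called in limma, beside 9.80% of all probe sets, and 2 of them were near an unadjusted p of 0.024 (THX and ty2). MSRA5 had signals of 354.8 and 306.4 in WT and of 254.9 and 275.7 in vip3, which amounted to -0.31 ± 0.14 SE on the log2 scale (limma, adjusted p = 0.21). The genes of the plastid thioredoxin system ATHM2, THX, TY1, ty2 and NTRC had log2 fold changes between -0.22 and 0.26. The other MSRA genes were not analysed here.

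Of the genes that make and use methionine, the substrate of BCAT4, 4 of 17 were measured. CBL, for cystathionine beta-lyase, which makes the direct precursor of methionine, rose by a small amount from signals of 1999.6 and 2002.4 to 2533.7 and 2344.1 (log2 fold change 0.28 ± 0.07 SE, limma adjusted p = 0.048; 0.059 with 16 added to the signals and 0.055 with the replicate block). HMT-1 and MMT, whose products act in the S-methylmethionine cycle, and MGL, for methionine gamma-lyase, had log2 fold changes of -0.05, -0.16 and -0.13 and were not called. Of 24 listed loci for asparagine, aspartate and ammonium only AT4G00590 had a named probe set, with a log2 fold change of -0.09 and signals between 80.8 and 113.5. The asparagine synthetases and glutamine synthetases were not analysed here, and the change of ASPGB1 stands without them.

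The genes whose signals over the 4 arrays most resembled those of BCAT4, MSRB6 and ASPGB1 were sought among named probe sets with a mean signal of at least 100. There were 7232 of these, from which those of the families were then left out. Likeness was the Euclidean distance between log2 signals after each profile had been centred on its own mean. With only 4 arrays such a distance mostly reflects the size of the genotype difference, and no relation between the genes follows from it. Nearest to BCAT4 were AT3G17350 (distance 0.0785), AT1G13650 (0.101) and AT1G66100 (0.101), whose log2 fold changes were -1.1, -1.1 and -1.06. AT1G66100 had signals of 10787.1 and 10944.4 in WT and of 5448.6 and 4975.6 in vip3.

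Nearest to MSRB6 were AT3G20370, AT3G28220 and AT1G71140, at distances of 0.156, 0.166 and 0.168. AT3G28220 had signals of 4317.8 and 3745.7 in WT and of 1752.5 and 1206.8 in vip3. ASPGB1 had no profile as near as these. The closest were AT2G38180 (0.561), AT3G26460 (0.571) and WSD1 (0.609), which encodes a wax ester synthase of the stem cuticle, all with smaller changes than ASPGB1. WSD1 went from signals of 83.1 and 66.3 to 452.2 and 322.2, or by 2.36 on the log2 scale, values that its selection as a similar profile had used.

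The fold changes of the members were then recomputed under 11 other settings. Across these the log2 fold change of BCAT4 ran from -1.16 to -0.92, that of MSRB6 from -1.71 to -1.33 and that of ASPGB1 from 2.38 to 2.72. For MSRB5 the range was 0.17 to 0.39 and for MSRB9 it was 0.42 to 0.59. Only the offset, quantile normalization and the removal of an array could move these values. Under the other settings they stayed as in the main setting by construction, so those settings say nothing of the stability of the fold changes. Among the 3 measured root markers, PYK10 had fallen alongside BCAT4 and MSRB6, by 0.82 on the log2 scale, from 4738.8 and 5739 on the WT arrays to 2687.2 and 3228.2 on the vip3 arrays, whereas EXPA7 and EXPA18 overlapped between the genotypes, and any part of root tissue in the changes of these members was not tested.

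**Figure D5:**
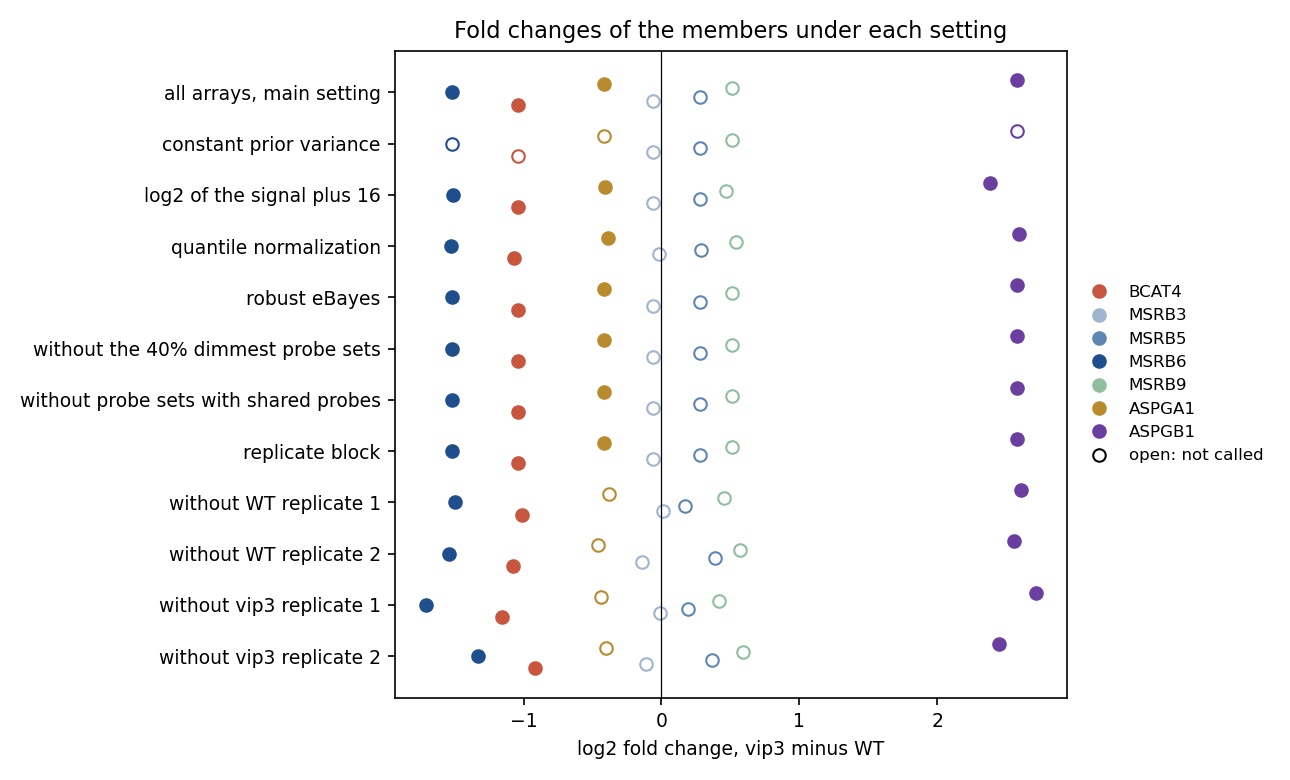
Log2 fold change, vip3 minus WT, of the 7 members with all arrays in the main setting and under the 11 other settings, with open symbols where a member was not called at an adjusted p under 0.05. BCAT4, MSRB6 and ASPGB1 are filled everywhere except with a constant prior variance, and MSRB3 stays near 0 (-0.14 to 0.01).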

How the data were processed

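Expression had been measured on 4 Affymetrix ATH1 arrays, 2 of WT and 2 of vip3. Linear signal intensities, 1 for each probe set, had been deposited by the authors from MAS 5.0, an algorithm that corrects for background and mismatch hybridisation. Their scaling between arrays is not described, but array medians were close. Subtraction of mismatch signal makes low values imprecise. GCRMA values, on which the study's methods base their own calls, were not analysed here. The number of arrays limits the precision.

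After removal of 64 control probe sets, log2 signals of the remaining 22746, without an offset, entered lmFit and eBayes (limma 3.58.1, R 4.3.3). The prior variance followed the mean signal, which gave 7.5 degrees of freedom. P-values were adjusted over all probe sets by the method of Benjamini and Hochberg. The script was tested on simulated data. With 2 arrays against 2, an exact permutation test of a single gene cannot reach 0.05.

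Gene names came from the platform annotation held by GEO and were brought up to date, by gene identifier, with a RefSeq table of TAIR10.1. Of 22810 probe sets, 13513 had 1 gene symbol, 503 several and 8794 none, and 13436 matched RefSeq. The RefSeq table gave names and gene order only, since the sources used here name no build for the array. No protein or promoter sequence was used here, and the planned comparison of protein identity was not run.

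The members and lists were chosen with earlier results of these data known, and the reading of neighbours in gene order was added after seeing the data. All members were named. Of each list the called genes were named, and otherwise the brightest, together with others of known role chosen after their values were seen. For 3 members the 3 nearest profiles were named. Alternatives were a constant prior variance, an offset of 16, quantile normalization, robust eBayes, removal of the 40% dimmest or of shared-probe probe sets, the replicate block, the methods' thresholds and removal of each array.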

Additional observations from a re-analysis of the deposited data

Results flagged for a closer look

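Among the control probe sets left out of every test, that for 25S ribosomal RNA read 148 and 137.6 on the WT arrays and 223.5 and 320.9 on the vip3 arrays, a mean 1.91 times as high. It drew attention because both vip3 arrays exceeded both WT arrays by at least 1.5 times. Controls for ribosomal RNA were screened for such a rise only, not for a fall, and no other control met it. Its relation to the family members was not tested.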

How the results depend on the processing

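With a constant prior variance, 0 of the 22746 probe sets, 0 of the 7 members and 0 of the 24 pathway genes were called in limma, although 3798, 5 and 4 had an unadjusted p under 0.05. The log2 fold changes of BCAT4 (-1.04), MSRB6 (-1.52) and ASPGB1 (2.58) were the same there by construction, without their calls. The methods' thresholds gave 354 probe sets, 3 members and 0 pathway genes. When each array was left out in turn, where a lone array is assumed to vary like the other genotype, 442 to 1332 probe sets, 3 members and 0 pathway genes were called. The log2 fold changes then ran from -1.16 to -0.92 for BCAT4, from -1.71 to -1.33 for MSRB6 and from 2.45 to 2.72 for ASPGB1. MSRB3 ran from -0.14 to 0.01, turning positive without WT replicate 1, and ATBCAT-5 from -0.14 to 0.06, with 0.04 without WT replicate 2 and 0.06 without vip3 replicate 2. The replicate block gave 2339 probe sets and 4 members, and only CBL of the genes followed lost its call. Deviations of same-numbered arrays had a correlation of -0.0438, and the arrays share no more than a number. The other settings left the counts within 1.5 times.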
